A study of Mus musculus with 7 samples.

Results

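The genes described here move calcium ions across membranes: 10 genes for channel subunits, an exchanger, store-operated entry and pumps, among 24421 genes in a count table of sorted muscle eosinophils. They were taken by gene symbol, and each of the 10 symbols matched 1 row. The set was chosen by the measured counts of Cacna2d2 and Slc24a3, which were higher in the IL5-Tg libraries, so the difference of these genes between genotypes is a description and carries no test here. The remaining 8 genes were Cacna2d4, Orai1, Orai2, Stim1, Stim2, Atp2b1, Atp2a2 and Atp2a3, which belong to the same families or pathway. One of the 10, Cacna2d4, had no read in any library and could not be tested, which leaves 9 genes that passed the count filter.

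The study compared eosinophils from mouse muscle of WT and IL5-Tg animals by RNA sequencing, with 3 libraries of WT and 4 of IL5-Tg cells. All muscles were taken 3 days after a step that the labels abbreviate as ntx, and cells were sorted by flow cytometry as CD45+, SiglecF+, NK1/Ly6G/CD3e- and, as the labels spell it, CD11bing. IL5-Tg animals carry a transgene for IL-5, the cytokine on which eosinophil production and survival depend. The labels give no strain, age or sex, do not say which promoter drives the transgene, and do not say whether each library is 1 animal, so the p-values rest on library-to-library spread, which may be technical. The series title speaks of mdx mice, which lack dystrophin, but the sample labels do not say whether these animals carry that allele. Il5 itself had 3722 to 7097 reads in the IL5-Tg libraries and 23, 0 and 0 reads in the WT libraries. Here and below, values listed per library follow the replicate number, 1 to 3 for WT and 1 to 4 for IL5-Tg, and the numbers only name the libraries.

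Calcium is the second messenger through which many granulocyte receptors act. When a receptor triggers release from the endoplasmic reticulum, the store sensors STIM1 and STIM2 detect the fall and open ORAI channels in the plasma membrane, a process called store-operated entry. SERCA pumps, encoded by the Atp2a genes, refill the store, while the plasma membrane pump encoded by Atp2b1 and sodium-calcium exchangers carry calcium out of the cell. Voltage-gated channels, to which the alpha2delta subunits encoded by Cacna2d genes belong, are best known from nerve and muscle.

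The libraries held 9665093 to 17447106 reads assigned to genes. None of the 12 eosinophil markers was at 0 in all libraries of a group, with a summed level of 3992 to 7736 CPM in WT and 5585 to 10524 CPM in IL5-Tg libraries, where CPM is reads scaled to a common library size with trimmed-mean (TMM) factors. Of these markers Prg2, Ear1 and Ear6, all granule genes, passed an edgeR adjusted p of 0.05, each higher in IL5-Tg libraries. Over all genes tested 0.338% passed higher. Only Il5ra and Ccr3 of the list were lower, at log2 fold changes of -0.97 and -0.59, and neither passed. Fibroblast markers summed to 2847, 3090 and 13.8 CPM across WT libraries and to between 1858 and 4596 CPM in IL5-Tg libraries, so WT replicate 3 stands apart from the rest. That library also had the fewest genes detected, 10877 against 12759 to 14391 in the others. Muscle fibre markers summed to 134 to 464 CPM in WT and 439 to 1375 CPM in IL5-Tg libraries, and macrophage and monocyte markers to 3359 to 4825 and 4685 to 5323 CPM. Adgre1 was the largest part of the latter sum, at 1287, 1416 and 2459 CPM in WT libraries. C1qa stood at 373, 674 and 68.4 CPM (WT) and at 585, 350, 776 and 602 CPM (IL5-Tg). C1qb and C1qc were also lowest in WT replicate 3, while Csf1r and Fcgr1 were lowest in WT replicate 1. Mast cell and basophil markers summed to 81.1 to 111 CPM in WT and 3.07 to 30.8 CPM in IL5-Tg libraries, without overlap, though none of the 5 tested passed. Neutrophil markers summed to 373, 129 and 16.4 CPM (WT) and to 31.8 to 42.0 CPM (IL5-Tg). The count most often seen among genes with few reads was 5, 8 and 12 for WT and 1, 1, 1 and 4 for IL5-Tg, so a count of 0 means less in WT than in IL5-Tg libraries.

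Cacna2d2 encodes an auxiliary alpha2delta subunit that helps bring voltage-gated channels to the membrane. Its gene model spans chromosome 9, 107399612 to 107529343, plus strand (GENCODE vM21, mm10). No read fell on it in any of the 3 WT libraries, while the IL5-Tg libraries had 100, 115, 64 and 133 reads, or 9.37, 8.84, 4.66 and 6.91 CPM. The groups do not overlap, yet the gene stayed at a low level of 7.44 ± 2.13 CPM (SD, n = 4) where it was present. Its pooled level in IL5-Tg libraries, 7.27 CPM from 412 reads, was at least 88.7-fold higher than the level that 3 reads over all WT libraries would give, the limit that a count of 0 allows. If 1 original molecule gives 12 reads, the largest of the low counts above, the limit of 3 molecules is 36 reads and the bound becomes at least 7.39-fold higher. Limits of this kind cover counting error only. The antisense genes Gm17141 and Gm17118, annotated within the Cacna2d2 locus, were not among the rows of the table, and the strand setting of the counting is not given in the sources used here.

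Its relative Cacna2d4, on chromosome 6 at 119236526 to 119352407, had 0 reads in all 7 libraries. The gene Lrtm2, which lies on the opposite strand inside the Cacna2d4 locus, had 24 reads in WT replicate 3, 7 reads in IL5-Tg replicate 2 and 0 in the others. Of the other alpha2delta genes, Cacna2d1 averaged 0.790 CPM in WT (SD 0.684, n = 3) and 1.92 CPM in IL5-Tg (SD 1.2, n = 4) (log2 fold change 1.26, SE 1.28, adjusted p = 0.878 by edgeR), and Cacna2d3 had too few reads to be tested.

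Slc24a3 encodes a potassium-dependent sodium-calcium exchanger, which uses the gradients of sodium and potassium to expel calcium. Its gene model spans chromosome 2, 145167754 to 145642166, plus strand. The WT libraries had 60, 56 and 28 reads, or 3.62, 5.91 and 2.65 CPM. The IL5-Tg libraries had 614, 978, 475 and 611 reads, or 57.5, 75.2, 34.6 and 31.7 CPM. The lowest IL5-Tg library was thus above the highest WT library, and the means were 4.06 CPM (SD 1.68, n = 3) for WT and 49.8 CPM (SD 20.5, n = 4) for IL5-Tg, a ratio of 12.3. The log2 fold change was 3.62, and it ranged from 2.84 to 4.01 over the 19 alternative settings, with the lowest value when the shared start of the sample titles was a block. Within the IL5-Tg group, replicates 1 and 2 were higher than replicates 3 and 4. Replicates 1 and 2 share a title start that no WT library has, while replicates 3 and 4 each share one with a WT library. WT replicate 3 has a title start of its own. Under the block the fold change thus rests on WT replicates 1 and 2 and IL5-Tg replicates 3 and 4. What these title starts mean is not given in the labels. In units of each library's most common low count, the WT values were 12, 7 and 2.33 and the IL5-Tg values 614, 978, 475 and 153, so the WT level of Slc24a3 rests on few such units.

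By the main test 2 of the 9 tested genes passed an edgeR adjusted p of 0.05, both higher. They were the pair chosen for being raised, so their pass is not independent of that choice and lends it no support. Over all 12428 genes tested 0.41% passed, 0.338% higher and 0.0724% lower, and nothing is read from the members' count. The balance of directions over all genes, 42 higher and 9 lower, was 30 higher and 31 lower without WT replicate 2. Among the 9 tested genes of the set, the number that passed was 0 without WT replicate 1. It was 1, with Slc24a3 left and Cacna2d2 lost, without any single one of the 4 IL5-Tg replicates. Summed muscle fibre markers were highest in IL5-Tg replicate 1, at 1375 CPM, the library with the most Cacna2d2, at 9.37 CPM. They were lowest of that group in IL5-Tg replicate 2, at 439 CPM. That library had the most Slc24a3, with Cacna2d2 at 8.84 CPM. The part of other cells' RNA in the levels of Cacna2d2 and Slc24a3 was not tested. In such bulk libraries a change in the number of cells of a type and a change in RNA per cell cannot be told apart.

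The promoter windows of this pair are shown because both genes were higher in the same 4 libraries, which raises the question of what letters their start regions share. Each runs from 250 bases before to 50 bases after the gene start of RefSeq (GRCm38.p6), 5′ to 3′ on the plus strand, with every CG dinucleotide in capitals. The first is chr9:107399630-107399929 and the second, for the upstream start of Slc24a3, is chr2:145167525-145167824.
Cacna2d2: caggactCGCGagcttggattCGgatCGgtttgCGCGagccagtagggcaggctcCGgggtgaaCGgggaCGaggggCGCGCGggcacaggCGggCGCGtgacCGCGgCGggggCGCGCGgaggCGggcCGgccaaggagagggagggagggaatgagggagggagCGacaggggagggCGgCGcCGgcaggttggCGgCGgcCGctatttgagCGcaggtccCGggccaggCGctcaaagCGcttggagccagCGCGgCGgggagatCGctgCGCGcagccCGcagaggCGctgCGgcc
Slc24a3: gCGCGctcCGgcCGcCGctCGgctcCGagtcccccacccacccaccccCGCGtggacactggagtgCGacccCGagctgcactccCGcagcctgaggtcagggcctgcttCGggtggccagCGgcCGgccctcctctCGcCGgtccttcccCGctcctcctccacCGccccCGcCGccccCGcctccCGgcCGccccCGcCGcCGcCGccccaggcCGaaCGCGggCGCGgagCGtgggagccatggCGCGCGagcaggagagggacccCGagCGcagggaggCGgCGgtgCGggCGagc
Each window held 43 CG dinucleotides, where the median over 32851 promoter windows was 7 and 2.61% held at least 43. The other members were also rich in CG, from 24 in Orai2 to 54 at the upstream start of Atp2b1, apart from the downstream start of Slc24a3 with 15. RefSeq windows were found for 8 of the 10 genes, 10 windows in all, and not for Cacna2d4 or Atp2a2. Neither raised gene's windows held the letters TTCNNNGAA, a motif of STAT factors that act below the IL-5 receptor, or GATAA, of GATA factors, or GGAAA, the core of NFAT sites, on either strand. Over all windows 8.30%, 25.4% and 61.3% held these letters. A TTCNNNGAA match and a GGAAA match can overlap in part.

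Orai1 was the 1 gene of the set with a TTCNNNGAA match, in capitals below, in the window chr5:123014824-123015123. It is printed because ORAI1 is the main pore of store-operated entry in many blood cells. The match starts 207 bases before the annotated gene start and is a description of letters, not of binding.
Orai1: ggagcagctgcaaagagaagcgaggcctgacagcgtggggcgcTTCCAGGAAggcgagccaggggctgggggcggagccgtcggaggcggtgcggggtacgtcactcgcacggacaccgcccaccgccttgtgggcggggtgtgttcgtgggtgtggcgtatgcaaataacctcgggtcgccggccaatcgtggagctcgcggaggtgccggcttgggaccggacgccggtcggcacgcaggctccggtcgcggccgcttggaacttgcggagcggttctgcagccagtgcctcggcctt
A GATAA match was found in the Stim1 window, and GGAAA matches in those of Orai2 and of the upstream start of Atp2b1.

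**Figure D1:**
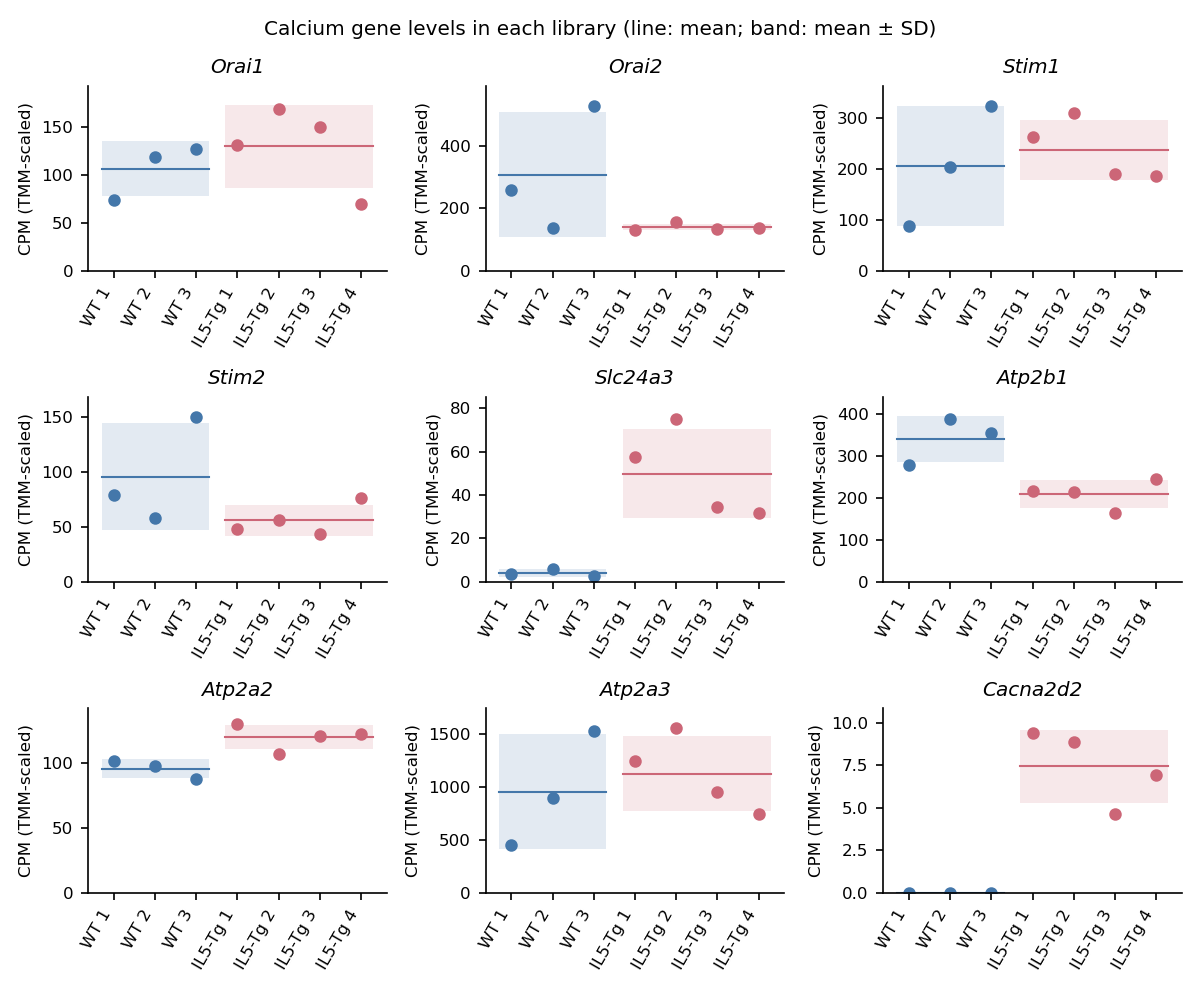
Level of each gene with reads, in CPM with TMM-scaled library sizes (vertical axis, linear from 0), in 3 WT (blue) and 4 IL5-Tg (red) libraries (horizontal axis), with the group mean as a line and the mean ± SD as a band. Slc24a3 and Cacna2d2 are higher in all 4 IL5-Tg libraries, Atp2b1 is lower in all 4, and Orai2 and Stim2 are highest in WT replicate 3.

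The store-operated entry genes were expressed in every library of both genotypes, and none of the 4 passed the test. ORAI1 and ORAI2 form the channel pore. Orai1 (chromosome 5, 123015074 to 123030456) stood at 74.1, 120 and 127 CPM (WT) and at 132, 169, 151 and 69.6 CPM (IL5-Tg). The groups overlap, since IL5-Tg replicate 4 was the lowest of all 7 libraries, and the log2 fold change was 0.29 with an SE of 0.33 (adjusted p = 0.894 by edgeR). Leaving out WT replicate 1 or 3 gave 0.09 or 0.45, and leaving out IL5-Tg replicate 2 or 4 gave 0.13 or 0.49. Orai2 (chromosome 5, 136147459 to 136170713) stood at 258, 137 and 525 CPM (WT) and at 131, 155, 134 and 138 CPM (IL5-Tg). WT replicates 1 and 3 were above every IL5-Tg library while WT replicate 2 was among them. The log2 fold change of Orai2 was -1.14 with an SE of 0.38 (adjusted p = 0.385 by edgeR), but -0.47 without WT replicate 3. The spread of Orai2 was also unequal, with an SD of 64.7% of the mean in WT and 7.56% in IL5-Tg libraries.

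STIM1 and STIM2 are the calcium sensors of the endoplasmic reticulum. Stim1 (chromosome 7, 102267806 to 102437319) stood at 88.0, 205 and 324 CPM (WT) and at 264, 309, 190 and 187 CPM (IL5-Tg). All IL5-Tg values lay within the WT range, and the log2 fold change was 0.21 with an SE of 0.40 (adjusted p = 0.939 by edgeR), but -0.15 without WT replicate 1 and 0.72 without WT replicate 3. Stim2 (chromosome 5, 53998499 to 54121057) stood at 79.2, 57.7 and 150 CPM (WT) and at 48.2, 55.9, 43.6 and 75.9 CPM (IL5-Tg). Here IL5-Tg replicate 4 was above WT replicate 2, so the groups overlap, and the log2 fold change was -0.77 with an SE of 0.34 (adjusted p = 0.544 by edgeR). Without WT replicate 3 it was -0.27. WT replicate 3 was the highest WT library for all 4 store-operated genes and also for the summed eosinophil markers, at 7736 CPM against 4776 and 3992 CPM in WT replicates 1 and 2. The part of the cell mixture in these levels was not tested.

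Pumps differed in direction. Atp2b1, the plasma membrane calcium pump found in most cell types (chromosome 10, 98914406 to 99026143), stood at 280, 389 and 354 CPM (WT) and at 217, 214, 165 and 246 CPM (IL5-Tg). Each IL5-Tg library was below each WT library. Means were 341 CPM for WT (SD 55.9, n = 3) and 211 CPM for IL5-Tg (SD 33.8, n = 4). The log2 fold change was -0.70 with an SE of 0.24 and did not pass (adjusted p = 0.394 by edgeR). It lay between -0.81 and -0.57 over the 19 alternative settings, none of which passed, with adjusted p from 0.263 to 0.999.

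Atp2a2 encodes SERCA2, the store pump of most cells and of slow and cardiac muscle (chromosome 5, 122453513 to 122502225). It stood at 102, 98.3 and 88.0 CPM (WT) and at 130, 108, 121 and 123 CPM (IL5-Tg). Here every IL5-Tg library was above every WT library, by a small margin, and the log2 fold change was 0.33 with an SE of 0.21 (adjusted p = 0.746 by edgeR). Atp2a2 varied little within groups, with an SD of 7.47% of the mean in WT and 7.76% in IL5-Tg libraries. Atp2a3 encodes SERCA3, the form typical of blood cells and some epithelia (chromosome 11, 72961169 to 72993044). It stood at 452, 894 and 1523 CPM (WT) and at 1247, 1558, 950 and 746 CPM (IL5-Tg). These groups overlap over most of their range, and the log2 fold change was 0.23 with an SE of 0.41 (adjusted p = 0.932 by edgeR), but -0.10 without WT replicate 1 and 0.76 without WT replicate 3.

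Of the 7 tested genes outside the chosen pair, 0 passed by edgeR, 0 by DESeq2 and 0 by limma-voom, and 3 (Orai2, Stim2 and Atp2b1, all lower) had an unadjusted edgeR p under 0.05. Over all genes tested 9.04% had such an unadjusted p, 1.81% passed by DESeq2 (1.13% higher and 0.676% lower) and 0.257% by limma-voom (0.193% higher and 0.0644% lower). The groups did not overlap for Atp2a2 (higher) and Atp2b1 (lower), 2 of 7 genes, where 4.76% of all genes tested did not overlap with IL5-Tg higher and 4.6% with IL5-Tg lower. A miss of the threshold does not show that these levels were equal, since the SE of 0.21 to 0.41 on the log2 scale leaves room for moderate differences.

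Single libraries led many of these genes together. IL5-Tg replicate 2 was the highest of its group for 5 of 9 genes (Slc24a3, Orai1, Orai2, Stim1 and Atp2a3), and IL5-Tg replicate 4 the lowest for 4 of them (Slc24a3, Orai1, Stim1 and Atp2a3). The summed eosinophil markers had the same extremes, with 10524 CPM in IL5-Tg replicate 2 and 5585 CPM in IL5-Tg replicate 4. Alox15 was the largest part of that sum, at 4651, 6109, 5105 and 3272 CPM in IL5-Tg libraries. Siglecf and Ccr3 were lowest in IL5-Tg replicate 3, at 470 and 575 CPM, and Il5ra and Il1rl1 in replicate 1. The other markers of the list were lowest in replicate 4. In the WT group replicate 3 was highest for 5 of 8 genes and for the marker sum, while replicate 1 was lowest for 4 genes and replicate 2 lowest for the marker sum. The marker list holds genes that themselves rose in IL5-Tg libraries, and its part in these orders was not tested.

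Levels of different genes were compared per kb of exon. In WT libraries Atp2a3 stood first at 181 ± 102 CPM per kb (SD, n = 3), followed by Orai2 at 50.5 ± 32.7 and Orai1 at 46.6 ± 12.5 CPM per kb, and these neighbours overlapped. A lower tier of Atp2b1, Stim1, Stim2 and Atp2a2, from 22.4 to 15.8 CPM per kb on average, also overlapped from each gene to the next. Slc24a3 at 0.890 ± 0.367 CPM per kb was below all of these in every WT library. In IL5-Tg libraries Atp2a3 was again first, at 213 ± 67.1 CPM per kb (SD, n = 4), and did not overlap with Orai1 at 56.8 ± 18.9 CPM per kb. Orai1 in turn did not overlap with Orai2 at 23.0 ± 1.74 CPM per kb. Slc24a3 reached 10.9 ± 4.49 CPM per kb there, next to Stim2 at 10.9 ± 2.78 and Atp2b1 at 13.8 ± 2.22 CPM per kb, with overlapping values. Cacna2d2 came last at 0.937 ± 0.269 CPM per kb.

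**Figure D2:**
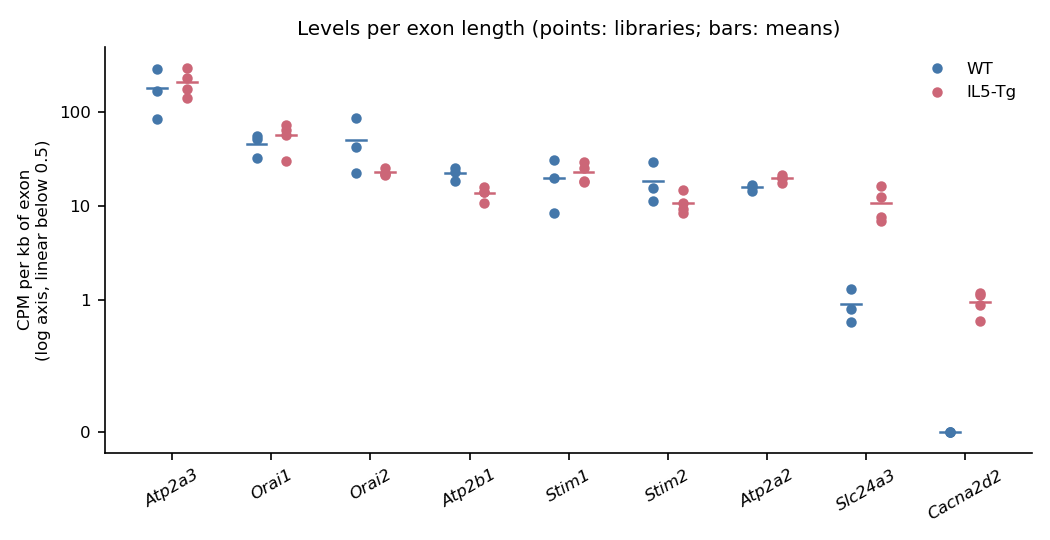
Level of each gene in CPM per kb of exon (vertical axis, log scale, linear below 0.5) for 3 WT (blue) and 4 IL5-Tg (red) libraries, with bars at the group means. Atp2a3 is the most abundant in both groups, and Slc24a3 moves from 0.890 CPM per kb in WT to the tier of Stim2 and Atp2b1 in IL5-Tg libraries.

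Ratios between related genes within a library do not depend on how libraries are scaled, and 3 of them, chosen after the data were seen, were set against genotype with exact permutation over all 35 splits, two-sided. Orai1 to Orai2, in reads per kb, was 0.761, 2.31 and 0.640 for WT and 2.66, 2.89, 2.97 and 1.33 for IL5-Tg. Orai1 was thus ahead of Orai2 in all 4 IL5-Tg libraries and in 1 of 3 WT libraries, but the groups overlap. The difference of the mean log2 ratios was 1.18 (exact p = 0.114, adjusted p = 0.171 over 3 ratios, with 0.0286 the smallest p possible). Stim1 to Stim2 was 0.550, 1.76 and 1.07 in the WT libraries and 2.71, 2.74, 2.16 and 1.22 in the IL5-Tg libraries, in the same order, a difference of 1.06 (exact p = 0.114, adjusted p = 0.171). Atp2a3 to Atp2a2 was 5.11, 10.5 and 19.9 in WT and 11, 16.7, 9.05 and 7.01 in IL5-Tg libraries, a difference of 0.02 (exact p = 0.971, adjusted p = 0.971). IL5-Tg replicate 4 had the lowest value of its group in all 3 ratios.

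**Figure D3:**
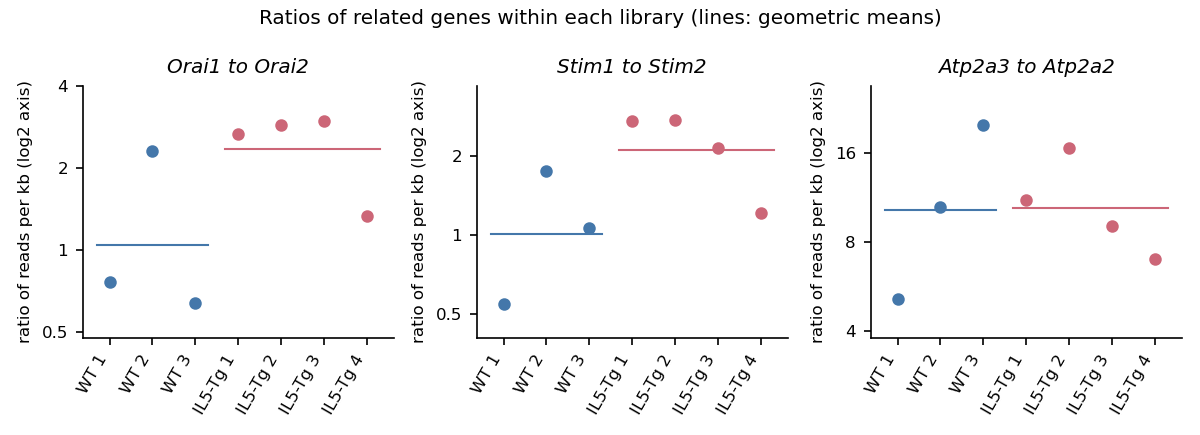
Ratio of reads per kb of 3 gene pairs (vertical axes, log2 scale) in 3 WT (blue) and 4 IL5-Tg (red) libraries, with lines at the geometric means. Orai1 to Orai2 and Stim1 to Stim2 are above 1 in all 4 IL5-Tg libraries, with WT replicate 2 and IL5-Tg replicate 4 inside the overlap.

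A wider list of calcium genes asked whether other parts of the machinery differed between the genotypes. Of 88 listed genes 87 had a row, 2 of them under an older symbol, and 58 were tested. None of the 58 passed by edgeR, against 0.41% of all genes, and 7 had an unadjusted p under 0.05, 2 higher and 5 lower. DESeq2 called 2, both higher (Atp2a1 and Nfatc2), and limma-voom 0. The median log2 fold change of the list was 0.10, beside 0.03 over all genes tested. The groups did not overlap for 7 of 58 genes, 3 higher and 4 lower, where 9.36% of all genes did not overlap.

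Genes of voltage-gated channels were scarce. Of the 10 pore subunits of voltage-gated channels 5 were tested, and the one with the highest CPM averaged over all 7 libraries, Cacna1f, stood at 7.55, 14.0 and 6.99 CPM (WT) and at 3.00, 2.38, 4.23 and 1.51 CPM (IL5-Tg). All its WT values were above the IL5-Tg values (log2 fold change -1.78, SE 0.56, adjusted p = 0.341 by edgeR). Cacna1s, the pore of skeletal muscle, averaged 2.26 CPM in WT (SD 2.72, n = 3) and 5.48 CPM in IL5-Tg (SD 2.21, n = 4), with adjusted p = 0.844 by edgeR. Of 12 beta and gamma subunits 6 were tested and 5 had no read in any library. Cacng1, of the muscle channel, had a log2 fold change of 0.66 (SE 1.2), but -0.83 when blocked by title start and -0.15 without IL5-Tg replicate 1. Cacnb2 had one of 0.15 (SE 0.70), and its sign also turned with some libraries left out, with the lowest value of -0.15 without IL5-Tg replicate 3.

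Among the other sodium-calcium exchangers, 2 of 8 were tested and 0 passed. Slc8b1, the mitochondrial exchanger, averaged 33.3 CPM in WT (SD 5.48, n = 3) and 30.7 CPM in IL5-Tg (SD 8.08, n = 4), and the plasma membrane exchanger Slc8a1 at 24.5 ± 4.06 and 17.1 ± 8.92 CPM. Slc24a2 and Slc24a4, relatives of Slc24a3, had no read in any library, and Slc24a1 and Slc24a5 had too few to test. Of the 5 partners of store-operated entry all were tested and 0 passed, among them Saraf, which limits the process (log2 fold change -0.16 ± 0.23 SE), and Orai3, the other pore gene (0.38 ± 0.27).

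Of 6 other pump genes 3 were tested. Atp2a1, the SERCA pump of fast muscle fibres, stood at 23.7, 37.9 and 10.2 CPM (WT) and at 176, 68.0, 112 and 71.0 CPM (IL5-Tg) (log2 fold change 2.16, SE 0.50, adjusted p = 0.148 by edgeR, DESeq2 adjusted p = 0.00084). The muscle fibre markers summed to 379, 464 and 134 CPM (WT) and 1375, 439, 697 and 525 CPM (IL5-Tg). IL5-Tg replicate 1 was highest and IL5-Tg replicate 2 lowest of its group for both, and in WT replicate 2 was highest and replicate 3 lowest for both. Of the 12 fibre markers 11 were tested, 0 passed, and none was at 0 in all libraries. Their part in the levels of Atp2a1 and of its relative Atp2a2 was not tested. Atp2c1, the pump of the Golgi apparatus, was at -0.27 ± 0.34 (log2 fold change ± SE).

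Release channels of the endoplasmic reticulum were present mainly as Itpr1, Itpr2 and Itpr3, the receptors for inositol trisphosphate. Ryr1 was also tested, at lower means of 5.36 CPM in WT and 7.49 CPM in IL5-Tg libraries. Of 6 release channel genes 4 were tested and 0 passed. Itpr2 stood at 87.7, 181 and 168 CPM (WT) and at 72.3, 93.1, 47.1 and 77.7 CPM (IL5-Tg), overlapping through WT replicate 1 (log2 fold change -1.0, SE 0.32, adjusted p = 0.340 by edgeR). Itpr3 was at -0.50 ± 0.29 (log2 fold change ± SE). All 8 genes of mitochondrial uptake were tested and 0 passed, with a median log2 fold change of -0.01. The group of 13 other permeable channels had 10 tested and 0 passed. P2rx1, an ATP-gated channel, had its highest CPM, at 415 ± 133 and 370 ± 116 CPM. Trpm7, a channel joined to a kinase, was at 47.1, 29.2 and 50.5 CPM in WT and 15, 22.3, 17.3 and 24.9 CPM in IL5-Tg libraries, without overlap (log2 fold change -1.09, SE 0.30, adjusted p = 0.239 by edgeR), and Trpm2 was at -0.86 ± 0.30.

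Downstream of calcium, the phosphatase calcineurin, its target NFAT and related genes were represented by 10 genes, all tested, of which 0 passed by edgeR. Ppp3ca, the catalytic subunit of calcineurin, was at 553, 320 and 546 CPM in WT and 215, 293, 215 and 302 CPM in IL5-Tg libraries, again without overlap (log2 fold change -0.88, SE 0.27, adjusted p = 0.326 by edgeR). Nfatc2, an NFAT transcription factor, was at 12.1, 8.24 and 9.26 CPM in WT and 35.5, 40.1, 39.7 and 19.8 CPM in IL5-Tg libraries. Every IL5-Tg library was higher, at a log2 fold change of 1.77 with an SE of 0.34 (adjusted p = 0.0755 by edgeR), and the gene passed in 5 of 19 alternative settings, where adjusted p ranged from 0.00044 to 0.407. Trpm2, Trpm7, Ppp3ca and Nfatc2 were named after their values were seen, because their unadjusted p was under 0.05. In the endoplasmic reticulum the calcium-binding chaperones Calr and Canx were at 0.26 ± 0.28 and -0.25 ± 0.25 (log2 fold change ± SE).

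**Figure D4:**
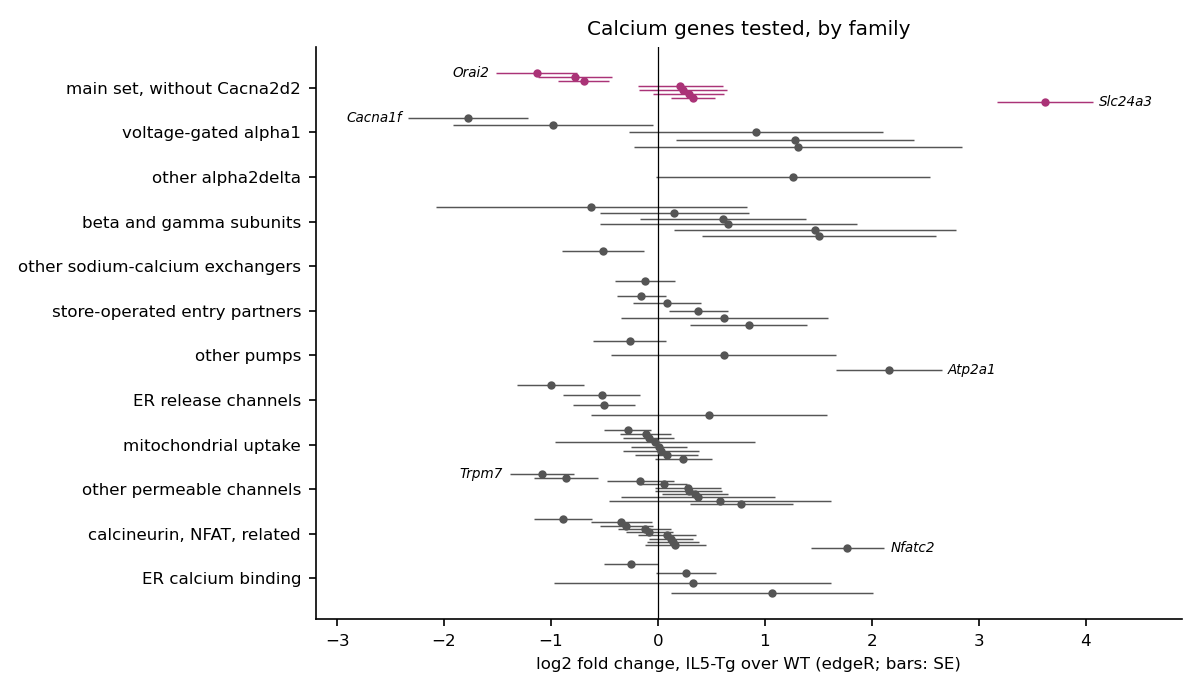
Log2 fold change of IL5-Tg over WT by edgeR with its SE (horizontal axis) for the set without Cacna2d2 (purple) and the 58 tested genes of the wider list by family (grey). Slc24a3, at 3.62, was chosen for being raised in this contrast, so its place on the axis is a description. The highest value of the wider list is that of Atp2a1 at 2.16.

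The genes whose levels across the 7 libraries were most like those of Cacna2d2 and Slc24a3 were found by Pearson's r of log2(CPM + 1), as a description. The libraries fall into a group of 3 and a group of 4, and the contrast between them is the one that chose the pair. For Slc24a3 the nearest were the receptor chain gene Il4ra (r = 0.992), Tmem119 (r = 0.990) and the cyclooxygenase gene Ptgs1 (r = 0.990). Tmem119 was at 18.3, 24.5 and 12.6 CPM in WT and at 126, 107, 79.3 and 65.8 CPM in IL5-Tg libraries. Like Slc24a3, it was higher in IL5-Tg replicates 1 and 2 than in replicates 3 and 4, as were Il4ra and Ptgs1. These genes were picked for likeness over the same libraries, which favours such a shared order. For Cacna2d2 the nearest were Myh7b (r = 0.996), 1700019G17Rik (r = 0.992) and Sox6 (r = 0.984). All had 0 reads in WT libraries, like Cacna2d2, and means of 1.15, 1.30 and 1.5 CPM in IL5-Tg libraries. They passed the count filter only through the IL5-Tg libraries, and the shared 0 values by themselves bring r near its maximum. No shared regulation is read from these r values.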

How the data were processed

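RNA of sorted cells was made into stranded mRNA libraries and sequenced as paired short reads, per the labels' protocols. The authors deposited unnormalised counts of reads, 1 row a gene symbol. The build mm10 and the tools STAR, Bowtie and bcl2fastq 2.20 are listed in the submitters' processing notes. For the counting program, its annotation and its use of strand, the sources used here say nothing. Rows for reads of no feature (9.15% to 18.2% of a library) and ambiguous reads (0.750% to 0.943%) entered neither library sizes nor tests.

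All 7 libraries entered 1 quasi-likelihood fit in edgeR 4.0.16 (R 4.3.3), with TMM scaling, filterByExpr, robust dispersion and a single term for genotype, and Benjamini-Hochberg adjustment over 12428 genes. CPM uses TMM-scaled sizes, and SE comes from the fold change and F statistic. Replicate numbers follow accession order and pair nothing. Exon lengths and positions are from GENCODE vM21 (GRCm38, the build of mm10).

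The 10 genes, the wider calcium list and the markers were chosen with earlier results of these data known. Named from the wider list were genes that passed or, in a family with none, up to 2 tested genes with the highest mean CPM, and for Cacna2d2 and Slc24a3 the 3 most alike genes. Some genes that this rule names are not reported here. Alternatives were other normalizations (RLE, upper quartile), DESeq2 1.42.0, limma-voom (limma 3.58.1), the newer edgeR fit, other filters, thinning, division by the most common low count (the peak of a running mean over 5 counts), a block for the start of sample titles, and leaving out each library.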

Additional observations from a re-analysis of the deposited data

Results flagged for a closer look

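In the search for a single library that stands apart among the 4 IL5-Tg libraries, 34 calcium genes were checked and 1 met the criterion of Dixon's test at the 95% level. Slc8a1, the plasma membrane sodium-calcium exchanger, was at 30.4 CPM in IL5-Tg replicate 4 against 11.5 to 14.4 CPM in the other 3. Without that library its log2 fold change was -0.95 in place of -0.51, and neither value passed by edgeR. Chance flags about 1 in 20 groups.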

How the results depend on the processing

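By replicate number, no paired analysis was possible because these numbers follow accession order and pair nothing. A different block could be fitted: with the shared start of the sample titles as a block, which the labels do not explain and of which 2 hold both genotypes, 52 genes passed against 51. Over all genes 225 passed by DESeq2, 32 by limma-voom, 97 with the newer edgeR fit, and 100 and 81 after division by the most common low count, without and with thinning. With 1 library left out 16 to 97 passed: 19 when WT replicate 1 was absent, 61 for WT replicate 2, 97 for WT replicate 3, and for the IL5-Tg libraries 16, 16, 17 and 30 in number order. Of the 10 genes 2 passed, the pair chosen for being raised, so this count is a description. It was 0 by limma-voom, 1 with a mean CPM of at least 10, and 1 after division and thinning. Cacna2d2 was not tested with that mean CPM filter or after division and thinning. With 1 library left out the count was 0 to 2. In the wider list 0 passed, but 2 by DESeq2 and 1, Nfatc2, with the newer edgeR fit, with no count filter, and after division without and with thinning. The difference in the log2 ratio of Atp2a3 to Atp2a2 changed sign, from -0.48 without WT replicate 1 to 0.51 without WT replicate 3. With the title block the log2 fold changes of Orai2 and Stim2 were -0.47 and -0.23. The median of the wider list turned to -0.08 with a mean CPM of at least 10 and to -0.04 after division and thinning. None of the 7 other tested genes passed under any of the 19 settings. The cause of these changes was not tested. At these depths genes under about 1 CPM rest on few reads, more so in WT libraries.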

Other observations

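Of 4 genes for small regulators of SERCA pumps 3 had a row, and none of these passed the count filter. Sln, which encodes sarcolipin, a SERCA inhibitor of muscle, had 8, 57 and 54 reads for WT and 0, 0, 0 and 4 for IL5-Tg, or 0.483, 6.02 and 5.10 CPM against at most 0.208 CPM. The gene was named after its values were seen and did not pass the count filter. Rcan1, whose transcription responds to calcineurin in many cells, stood at 52.1, 49.4 and 37.0 CPM (WT) and at 62.5, 46.1, 47.7 and 47.5 CPM (IL5-Tg), a log2 fold change of 0.14 with an SE of 0.24 (adjusted p = 0.931 by edgeR). It was chosen after its values were seen, beside Nfatc2, Ppp3ca and Slc24a3.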
